A study of Homo sapiens with 5 samples.

Results

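GATA1, GATA2 and FOG1 (gene symbol ZFPM1) were examined in the start sites called from nascent RNA of HUDEP-2 cells. HUDEP-2 is an immortalised line of human erythroid progenitors. The assay, PRO-seq (precision run-on sequencing), labels RNA at engaged polymerases in isolated nuclei. Every call inside these 3 genes or within 100 kb of either end was taken, which gave 30 of the 28283 calls in the deposited lists. Of these, 11 belonged to GATA1, 13 to GATA2 and 6 to ZFPM1. The farthest calls inside the limit were 49174 bp from an end of GATA1, 92222 bp from GATA2 and 33146 bp from ZFPM1, and the nearest beyond it were at 103462, 124479 and 126020 bp. The series holds 5 libraries of wild-type HUDEP-2 cells and of clones grown from single cells after editing with sg1617, a guide that targets the erythroid enhancer of BCL11A. Wild-type cells gave 2 libraries. Of the edited clones, 1 had gained 1 bp and the others had lost 13 bp and 15 bp. Each gave 1 library, so every edit is represented by a single clone. The calls form 1 list per strand, made from a single HUDEP-2 alignment and with no column per library. Which of the 5 libraries entered that alignment was not determined here. No comparison of edited with unedited cells was therefore possible, the lists have no replicates, and all values below describe positions. A call does not give an amount of transcription, because the score was 0 throughout and the reads behind each call are unknown.

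GATA1 is the zinc finger transcription factor that drives erythroid genes by binding DNA at GATA motifs. GATA2 binds the same motif in stem and progenitor cells and is replaced by GATA1 at many sites as red cells mature, an exchange called the GATA switch, in which GATA2 itself is repressed. FOG1 is a cofactor that binds a zinc finger of GATA1 or GATA2 and brings the NuRD chromatin remodelling complex. GATA2 has an outer start, known in mouse as the promoter used in blood progenitors, and an inner start of wider use. GATA2-AS1 is a long non-coding RNA gene on the strand opposite GATA2.

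All 3 genes had a call on their own strand within 3 bp of an annotated RefSeq start. A gene counted as called when such a call lay within 500 bp of a start, and 47.9% of the 15812 protein-coding genes with a listed start were called by this rule. Only 20.5% had a call within 3 bp. On X, GATA1 (gene ID 2623, 48786590 to 48794311, forward strand) was called at 48786589, an offset of -1 bp, that is, 1 bp upstream of its start. On chromosome 3, GATA2 (gene ID 2624, 128479422 to 128493201, reverse strand) was called at 128493198, 3 bp downstream of its outer start. On chromosome 16, ZFPM1 (gene ID 161882, 88451769 to 88537031, forward strand) was called at 88453279, an offset of -1 bp from its start at 88453280. That start lies 1511 bp inside the outer left end of the annotated gene, and no call lay within 500 bp of the outer end, so the gene passed only with the inner start.

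The sequences around these calls and around the call at the start of GATA2-AS1 are shown because they place each call at a single base. They are RefSeq GRCh38.p14 sequence, 5′ to 3′ on the strand of the gene, and each ends 10 bases after the annotated start base. The GATA1 stretch, chrX:48786340-48786600 on the forward strand, begins 250 bases before the start. The other stretches begin 100 bases before it, at chr3:128493191-128493301 on the reverse strand for GATA2, chr3:128489103-128489213 on the forward strand for GATA2-AS1 and chr16:88453180-88453290 on the forward strand for ZFPM1. Capitals mark called bases. In GATA1 the first capital is a call on the opposite strand and the second is the start call.
GATA1: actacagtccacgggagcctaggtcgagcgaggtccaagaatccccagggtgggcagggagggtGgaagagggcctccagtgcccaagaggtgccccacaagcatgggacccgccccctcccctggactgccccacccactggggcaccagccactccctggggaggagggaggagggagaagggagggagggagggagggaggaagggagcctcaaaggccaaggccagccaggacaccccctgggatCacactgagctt
GATA2: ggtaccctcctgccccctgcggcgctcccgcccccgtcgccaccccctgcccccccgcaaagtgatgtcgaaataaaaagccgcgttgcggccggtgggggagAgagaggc
GATA2-AS1: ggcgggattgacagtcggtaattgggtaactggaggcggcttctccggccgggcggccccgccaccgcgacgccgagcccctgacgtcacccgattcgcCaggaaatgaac
ZFPM1: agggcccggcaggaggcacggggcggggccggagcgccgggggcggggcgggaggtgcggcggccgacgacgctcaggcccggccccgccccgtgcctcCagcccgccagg

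The start calls of GATA1, ZFPM1 and GATA2-AS1 each fell on a C that is followed by an A, with the A at the annotated start. Transcription by RNA polymerase II commonly begins at a purine that follows a pyrimidine. The opposite-strand call upstream of GATA1, read on its own strand, also fell on a C followed by an A. The GATA2 call was at an A between G bases and had no such step. Over 8116 calls in such promoter windows, 33.7% had a C at the call and an A after it, whereas this step made up 6.33% of adjacent bases in all windows. A pyrimidine followed by a purine made up 21.6% of adjacent bases in all windows. It was found at the called base and the next in 44.0% of the 8116 calls (Wilson 95% interval 42.9 to 45.1%). At the base before and the called base it was found in 32.0% (31.0 to 33.1%). The shares were 43.2% and 32.9% for forward calls and 44.8% and 31.2% for reverse calls. Offsets of -1 and 0 bp are thus resolved to no better than 1 base, and -1 bp was the most frequent value, in 19.4% of called genes.

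**Figure D1:**
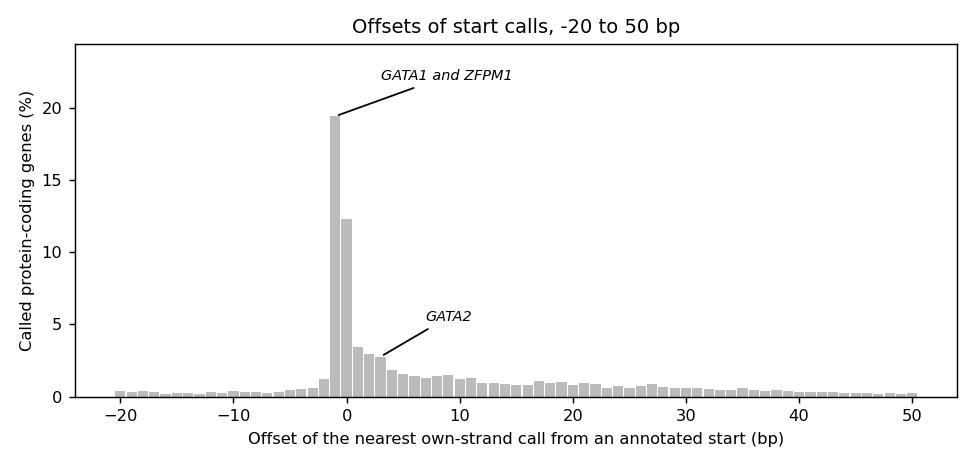
Offset in bp of the nearest own-strand call from an annotated start, shown from -20 to 50 bp, as a percentage of the 7572 called protein-coding genes. GATA1 and ZFPM1 sit in the tallest bar at -1 bp, which holds 19.4% of genes, and GATA2 at 3 bp, which holds 2.77%.

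Short motifs were counted on both strands of the window from 250 bases before to 50 after each start. GATA, the core of the motif that these factors bind, occurred in 49.6% of 34961 windows and in 0 of the 5 windows of GATA1, GATA2 (outer and inner start), GATA2-AS1 and ZFPM1. The longer AGATAA occurred in 10.3% of windows and TATAAA, the TATA box letters, in 11.5%, and all 5 of these windows lacked them. CACCC, the core of sites bound by KLF factors, occurred in 59.9% of all windows. It was found 4 times in GATA1 and 4 times at the outer start of GATA2, and 0 times in ZFPM1. GGGCGG, the core of sites bound by SP factors, occurred in 45.0% of windows and had 7 matches in ZFPM1, against 1 each in GATA1 and at the outer GATA2 start. The ZFPM1 window held 83.0% G and C, the GATA1 window 67.7% and the outer GATA2 window 72.3%, against a median of 58.7%. These are matches of letters in a short window, and sites outside it were not searched.

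GATA1 carried a pair of divergent calls at its start and another just upstream. A call was counted as paired when a second call, on the opposite strand and pointing away from it, lay up to 1000 bp upstream. The start call at -1 bp was paired with a reverse call at 48786404, 186 bp upstream of the start, at a distance of 185 bp. A forward call at 48786052, 538 bp upstream, was paired with a reverse call at 48785924, 666 bp upstream, at a distance of 128 bp. All 4 calls of the GATA1 promoter region were thus paired and alternated in strand.

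Inside GATA1 both calls ran against the gene. They lay on the reverse strand at 48787660 and 48787956, 1070 and 1366 bp downstream of the start, without a partner. The remaining 6355 bp of the gene held 0 calls on either strand. The tables used here give no exons, so whether these positions are exonic or intronic was not determined. An antisense call inside the gene was present in 35.6% of the 7572 protein-coding genes called at a start, and all 3 genes described here had at least 1. At least 2 calls inside were found in 19.4% of protein-coding genes. Over the 7.72 kb of GATA1 this was 0.259 calls per kb, a density reached by 5.27% of protein-coding genes.

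Away from the gene, GATA1 had 5 further calls. A couple of forward calls at 48737416 and 48737705 lay 49.2 and 48.9 kb upstream, between genes and 12855 and 13144 bp from the nearest gene end. Neither had a reverse partner. Downstream, 3 reverse calls lay at 48801347, 48801642 and 48802402, 14.8 to 15.8 kb from the start. They surrounded the annotated starts of HDAC6, the cytoplasmic deacetylase gene that follows GATA1, at 48801398, 48801949 and 48802067 on the forward strand. HDAC6 had 0 forward calls inside it or up to 500 bp from it, so around its starts only the antisense direction was called. A protein-coding gene with no call at any start but an antisense call within 1000 bp upstream of one made up 3.69% of the 15812 genes.

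Same-strand calls near GATA1 came in close couples. Of the 9 gaps between neighbouring calls of 1 strand, 4 were at most 500 bp, at 289, 295, 296 and 480 bp. Over all calls 12.2% of such gaps were that short. The gaps near a gene were taken only where both calls lay within 100 kb of it, which leaves out longer gaps. These shares are therefore not directly comparable. There were 0 such gaps among the 11 around GATA2 and the 4 around ZFPM1. With calls of a strand within 500 bp merged, GATA1 kept 7 of its 11 calls, while GATA2 and ZFPM1 kept 13 and 6. Whether close couples mark separate start sites was not tested.

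**Figure D2:**
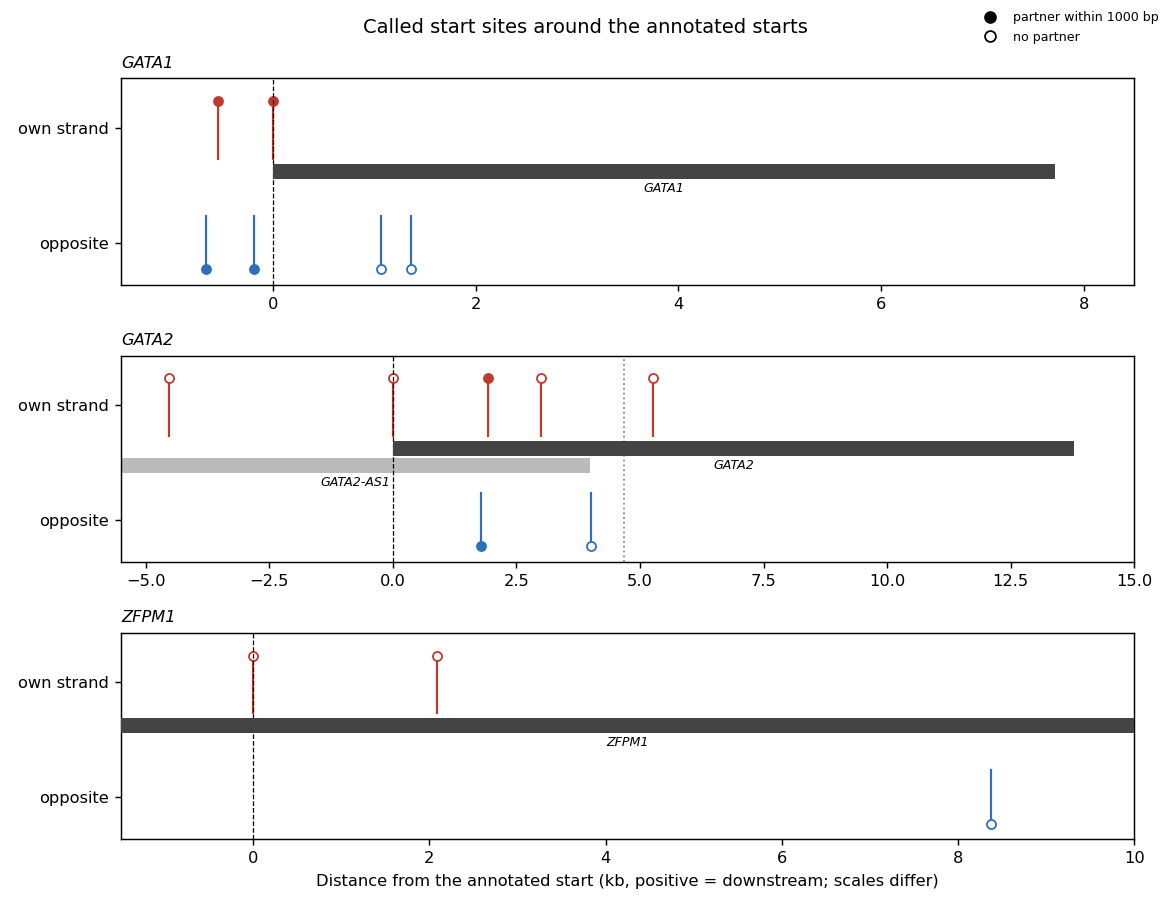
Calls around the annotated starts of GATA1, GATA2 and ZFPM1, by distance from the start in kb, with scales that differ between panels. Calls on the gene's own strand point up (red) and opposite calls point down (blue). Filled circles have a partner within 1000 bp and open circles do not. Bars are annotated genes, dashed lines the start and the dotted line the inner start of GATA2. The 4 filled calls at GATA1 form its divergent pairs, and the start calls of GATA2 and ZFPM1 are open.

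GATA2 was called at its outer start and at the start of its antisense gene, and not at its inner start. The call at 128493198 had no divergent partner. The inner start, at 128488530, lies 4671 bp downstream of the outer one, and its nearest own-strand call was at 128487931, 599 bp further downstream, beyond the window of 500 bp. Among 1436 protein-coding genes with 2 listed starts and at least 1 called, 44.0% had a call at only 1 of them. GATA2-AS1 (128489203 to 128503207, forward strand) was called at 128489202, an offset of -1 bp. This call lay inside GATA2, 3999 bp downstream of the outer start and 672 bp upstream of the inner start, on the antisense strand. The own-strand call at 128487931 lay 1272 bp from the start of GATA2-AS1, just outside the distance for a pair.

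Between the starts, GATA2 held a divergent pair and a further own-strand call. The pair was formed by the reverse call at 128491273 and the forward call at 128491409, 136 bp apart, 1928 and 1792 bp downstream of the outer start. The further reverse call was at 128490198, 3003 bp downstream. All 3 positions also lie within GATA2-AS1, which overlaps the upstream part of GATA2. In all, 4 calls inside GATA2 ran with the gene and 2 against it. They occupied the first 5270 bp, and the last 8509 bp held 0 calls. Only 1.59% of protein-coding genes had as many as 6 calls inside, and 2.86% reached its density of 0.435 calls per kb.

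Upstream of GATA2, a reverse call at 128497727 lay 4526 bp before the outer start, inside GATA2-AS1. The next call in that direction was a forward call at 128585423, 92.2 kb upstream and between genes. Neither was paired. An enhancer far upstream of GATA2 is known from studies of blood cells, and no list of enhancers was used here to place these calls.

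Downstream of GATA2, 5 calls lay between 66.6 and 83.0 kb from the outer start. Of these, 4 lay inside EEFSEC, which encodes an elongation factor for selenocysteine, and formed divergent pairs. The pair at 128410196 and 128410289 was 93 bp apart and that at 128415406 and 128416298 was 892 bp apart. They were 16027 and 15934 bp, and 10817 and 9925 bp, from the nearest end of any annotated gene. The call at 128426579, on the forward strand and unpaired, lay 356 bp past the right-hand end of EEFSEC. Between the last call in GATA2 and this group there were 0 calls, although the non-coding genes LOC124909428 and LOC124909429, and DNAJB8 with its antisense gene, lie there.

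**Figure D3:**
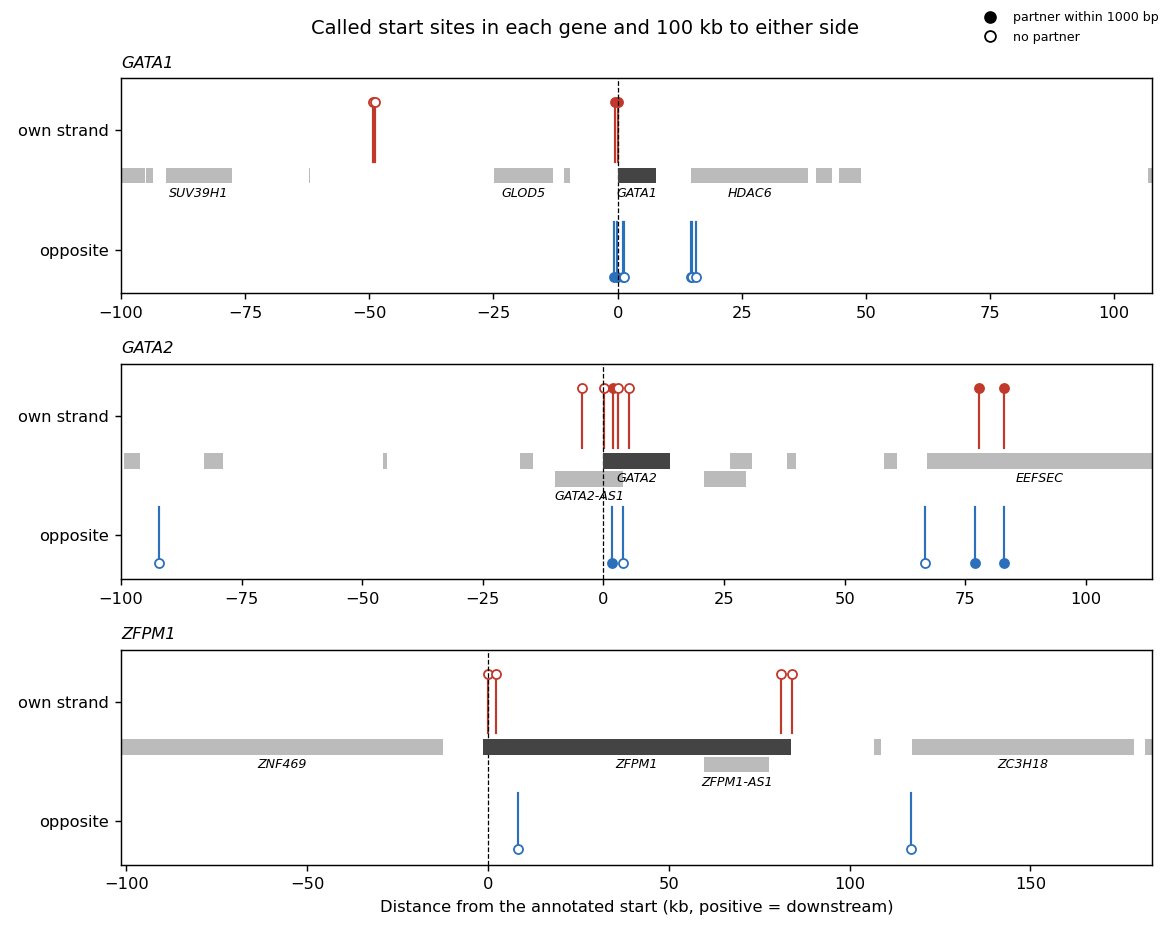
Calls in GATA1, GATA2 and ZFPM1 and within 100 kb of either end, by distance from the annotated start in kb, drawn in the gene's own direction. Red upward marks are own-strand calls and blue downward marks opposite calls. Filled circles have a partner within 1000 bp. Dark bars are the named gene and grey bars neighbouring genes. GATA2 has a group of calls 66.6 to 83.0 kb downstream, GATA1 a couple about 49 kb upstream, and ZFPM1 a long stretch without calls.

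ZFPM1 was called at its start without a partner, and its calls were spread unevenly over a long gene. After the start call, a forward call lay at 88455365, 2085 bp downstream. Upstream of the start there were 0 calls within the limit of 100 kb. A single reverse call lay at 88461649, 8369 bp downstream. The following 72681 bp of the gene, which include MIR5189 and ZFPM1-AS1, held 0 calls. ZFPM1-AS1, an antisense non-coding gene, was not called at its start. Another forward call was at 88534330, 81050 bp downstream of the start and 2701 bp before the end of the gene. The last forward call lay at 88537395, 364 bp past the end. Both lie on the strand of ZFPM1, and the nearest listed start on that strand, that of ZC3H18, is 36073 and 33008 bp away from them.

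ZFPM1 held 4 calls inside, a number reached by 4.98% of protein-coding genes. Over its 85.3 kb this was 0.0469 calls per kb, which 21.9% of genes reached, above the upper quartile of 0.0371 over protein-coding genes. The only other call within 100 kb was a reverse call at 88570177, 226 bp upstream of the start of ZC3H18, the next protein-coding gene. ZC3H18 had 0 forward calls inside it or up to 500 bp from it, as at HDAC6.

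Pairing was found for 10 of the 30 calls (33.3%, Wilson 95% interval 19.2 to 51.2%), against 57.6% of 28159 calls on chromosomes 1 to 22 and X. GATA1 had 4 of 11 calls paired, GATA2 6 of 13 and ZFPM1 0 of 6. For ZFPM1 the Wilson upper limit is 39.0%, and the limit from 3 counts, which a count of 0 allows, is 50%. These intervals and limits cover counting error only, and neighbouring calls are not independent. At the starts themselves, GATA1 had a partner and GATA2 and ZFPM1 did not, while 67.6% of protein-coding genes called at a start had one, with a median distance to it of 179 bp and quartiles at 119 and 281 bp. With 3 starts this count does not set the genes apart from others.

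By class, 4 of the 30 calls lay at an annotated start (13.3%, interval 5.31 to 29.7%), against 38.6% of 26949 calls on chromosomes with listed starts. These were the starts of GATA1, GATA2, GATA2-AS1 and ZFPM1. Upstream antisense calls made up 5 of 30 (16.7%, against 16.5%), namely 4 near GATA1, of which 2 belong to HDAC6, and that at ZC3H18. Other calls inside genes made up 15 of 30 (50%, interval 33.2 to 66.8%, against 30.7%), with 9 of them around GATA2. Other calls between genes made up 6 of 30 (20.0%, against 14.2%).

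Around GATA1 and GATA2 there were more calls than around most genes. The median number of calls in a protein-coding gene or within 100 kb of it was 5 (quartiles 1 and 9). The 13 calls of GATA2 were reached by 16.8% of 19974 genes, the 11 of GATA1 by 21.9% and the 6 of ZFPM1 by 44.2%. Distal calls, which lie over 1000 bp from both ends of every annotated gene, numbered 9 around GATA2, 5 around GATA1 and 4 around ZFPM1. The median over protein-coding genes was 0, and 2.83%, 10.6% and 14.6% of genes had at least as many. Distal calls made up 18 of the 30 calls, against 27.9% of all calls. Of the 18, 9 lay inside the 3 genes and 1 of these was the annotated start of ZFPM1 itself. Starts inside a gene did not enter the distance. The distal calls at 48802402 and 128487931 lay 335 bp from a start of HDAC6 and 599 bp from the inner start of GATA2. With a distance of 5000 bp from gene ends, 7 of the 30 calls remained distal.

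**Figure D4:**
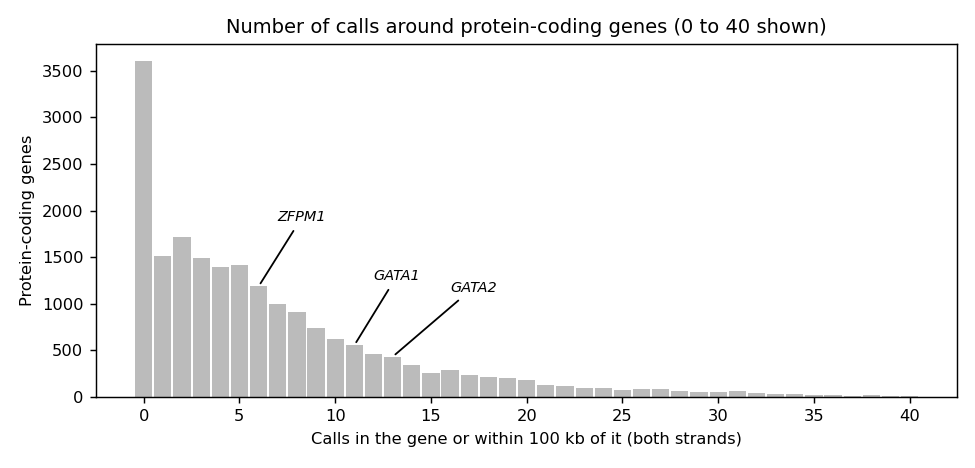
Number of protein-coding genes by the number of calls in the gene or within 100 kb of it, both strands, shown up to 40 calls. ZFPM1, with 6 calls, lies near the median of 5, while GATA1, with 11, and GATA2, with 13, lie above the upper quartile of 9.

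In the rest of the GATA family, GATA3 and GATA6, the factors of lymphoid cells and of endoderm, had 0 calls inside or up to 500 bp from the gene. TRPS1, a GATA-type repressor, and ZFPM2, which encodes FOG2, also had 0. GATA4, a cardiac and endodermal factor, had a single reverse call inside the gene. GATA5, another factor of endoderm, had 2 calls on chromosome 20, both just beyond its right end of 62475995. A reverse call at 62475996, 1 bp beyond that end, and a forward one at 62476176 formed a divergent pair 180 bp apart. GATA5 has no start in the sequence table, so these calls were not scored against a start. Of the 9 genes of the family and its cofactors, 5 have a start in the sequence table, and 3 of these were called, which are the genes described here (60%, interval 23.1 to 88.2%, which holds the 47.9% of protein-coding genes). A further rule, by outer gene ends, asked for a call at most 500 bp from either end that pointed into the gene. It did not use the gene's own strand, so an antisense call at the far end also passed. A gene called this way need not be called at its own start. By outer gene ends 3 of 9 were called, against 42.2% of protein-coding genes, with GATA5 among them and ZFPM1 not. When a call on either strand, in the gene or up to 500 bp from it, was enough, 5 of 9 had one, against 53.7% of protein-coding genes.

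Proteins that work in complexes with GATA1 or FOG1 were called in 19 of 21 genes with a listed start (90.5%, Wilson 95% interval 71.1 to 97.3%), against 47.9% of protein-coding genes. Among them were LDB1, which bridges distant GATA1-bound sites, at -1 bp, KLF1, an erythroid activator, at 3 bp, and GFI1B, a repressor that acts with GATA1, at 45 bp. TAL1, the bHLH partner in the GATA1 complex, was called 463 bp downstream of a start. With a window of 100 bp the count fell from 19 to 15, without TAL1, MTA2, MBD3 and LYL1. The NuRD subunits RBBP4, at 2 bp, HDAC1, at -11 bp, and MTA2, at 223 bp, were called. The genes uncalled at a listed start were CHD4, a NuRD subunit, and CBFA2T3, a corepressor of the TAL1 complex. Their nearest own-strand calls lay 933 and 35628 bp upstream of a listed start. By outer gene ends both were called, and they had 1 and 4 calls in the gene or within 500 bp. That rule called 19 of the 23 partner genes, against 42.2% of protein-coding genes. SPI1, the myeloid factor that opposes GATA1, had 0 calls in the gene or within 500 bp.

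Known targets that GATA1 activates were called in 12 of 14 genes with a listed start (85.7%, interval 60.1 to 96.0%), against 47.9% of protein-coding genes. GATA1 and ZFPM1 are themselves 2 of the 12. ALAS2, the erythroid enzyme of haem synthesis, and RHAG, a subunit of the Rh complex, were called at -1 bp and EPOR, the erythropoietin receptor, at 3 bp. EPB42, a red cell membrane protein gene, had 0 calls inside or up to 500 bp from it, and GYPB, a glycophorin gene with near-identical copies, had its nearest call 925 bp from its start. The other 9 targets, among them HBB and HBA1, have no start in the table. With outer gene ends used for all 23, a setting chosen after seeing the data, 20 were called, against 42.2% of protein-coding genes.

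Genes of the GATA switch, bound by GATA2 in progenitors and repressed as GATA1 replaces it, were called in 4 of 6 with a listed start (66.7%, interval 30 to 90.3%), against 47.9% of protein-coding genes, a share inside that interval. These were GATA2 itself, KIT, the stem cell factor receptor, at 0 bp, HHEX, a homeobox factor, at -1 bp, and LYL1, a relative of TAL1, at 109 bp. CD34, the progenitor surface marker, and MEIS1, a homeobox factor of stem cells, had 0 calls in the gene or within 500 bp. MYC and SPI1 have no listed start. MYC had 22 calls in the gene or within 500 bp and SPI1 had 0. By outer gene ends 5 of 8 were called, MYC among them, against 42.2% of protein-coding genes. The 4 lists hold 57 distinct genes and 6 of these are in more than 1 list. They were drawn up with earlier results of these data known, so their shares are descriptions.

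The median number of calls within 100 kb was 6 for the GATA family list, 14 for the partner list, 18 for the activated targets and 10.5 for the switch list, against 5 for all protein-coding genes. Among the marker lists it was 19.5 for erythroid, 13 for myeloid, 7 for mast and basophil, 6 for megakaryocyte and 3 for progenitor genes, so values above 5 were not limited to lists whose genes were called. Markers of the cell line and of other blood cells were counted the same way. Erythroid markers were called in 5 of 5 with a listed start, megakaryocyte markers in 0 of 4 and mast and basophil markers in 0 of 5. The Wilson upper limits of these shares are 49.0% and 43.4%, and the limits from 3 counts, which a count of 0 allows, are 75% and 60%. The 47.9% of protein-coding genes lies below each of these limits but the 43.4% of the mast and basophil list. Of the progenitor markers 1 of 7 was called, HLF at 41 bp, and of the myeloid markers 1 of 4, CEBPA at -1 bp. By outer gene ends, a setting chosen after seeing the data, 8 of 8 erythroid and 0 of 8 megakaryocyte markers were called. The mast and basophil list had 0 of 7 and the progenitor and myeloid lists 1 of 7 each, against 42.2% of protein-coding genes. The mast cell markers CPA3 and HDC, like CD34, had 0 calls inside or up to 500 bp from the gene.

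**Figure D5:**
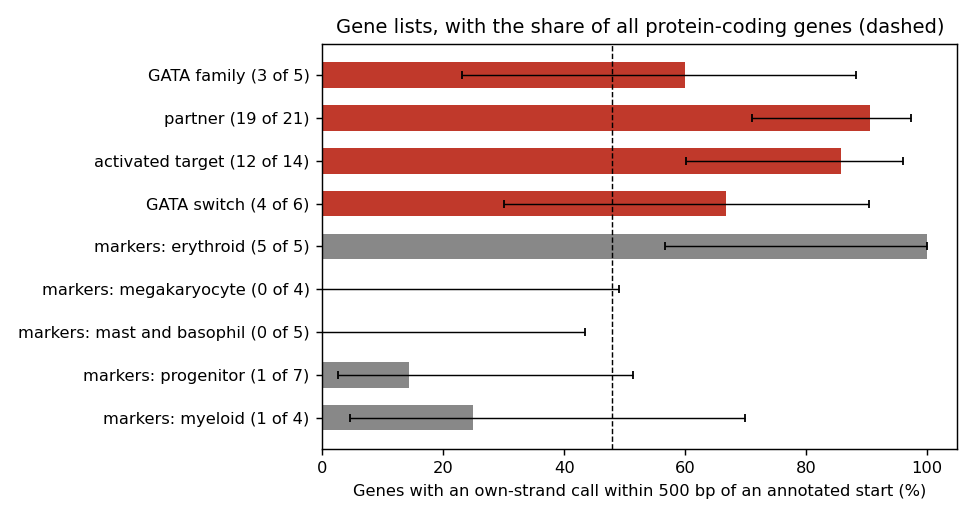
Percentage of genes with an own-strand call within 500 bp of an annotated start, by gene list, with Wilson 95% intervals and the number called of those with a listed start. The dashed line is the 47.9% of all protein-coding genes. The partner list reaches 90.5% and the activated targets 85.7%, and the megakaryocyte and the mast and basophil lists are at 0.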

How the data were processed

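PRO-seq start sites of HUDEP-2 cells were taken from 2 lists, 1 per strand, with 14124 forward and 14159 reverse calls. Per the file headers, TSScall was run on 1 sorted, de-duplicated alignment. Per the submitters' processing notes, deepTools 3.5.4, SAMtools 1.17, Picard and BWA 0.7.16a were used with hg38. The read minimum of TSScall is not given in the sources used here. The score deposited by the authors was 0 in every call, so depth is unknown and no test between samples could be made. Calls are 1 base long, and the end column was read as the 1-based position. Genes came from the RefSeq table of GRCh38.p14, and starts, strands and sequences from its promoter table, in which 15812 of 19974 protein-coding genes on chromosomes 1 to 22 and X have a start. Where a gene has several starts the nearest was used. Every gene of the members and lists could be named. The members and lists were chosen with earlier results of these data known. No p-value was computed. Intervals are Wilson 95%, and for a count of 0 the share that 3 counts would give is added. The rules were tested on simulated calls. Python 3.11.15, numpy 2.4.6, pandas 2.3.3 and matplotlib 3.10.9 were used.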

Additional observations from a re-analysis of the deposited data

How the results depend on the processing

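Of 28 values recomputed under alternatives over the 3 genes or a list, 21 stayed within 1.5 times the reported count or within its interval. The count of 30 calls rose to 50 with a flank of 200 kb, and the 18 distal calls fell to 7 with a distance of 5000 bp from gene ends. With any call in or within 500 bp of the gene, 5 of 9 of the GATA family and 22 of 23 activated targets were called. This was over all members of each list, against 53.7% of protein-coding genes by the same rule. With outer gene ends, 20 of 23 activated targets were called, against 42.2% of protein-coding genes. The share of calls with a pyrimidine before a purine at the call, 32.0%, became 12.0% when read 1 base upstream and 44.0% when read 1 base downstream. For single genes, GATA2 had 7 calls with a flank of 50 kb, GATA1 had 21 and ZFPM1 10 with 200 kb, and GATA1 had 7 with merging. The 3 starts were called under every window tried, from 100 to 1000 bp. Leaving out a library was not run, because the lists have no column per library. No paired analysis was possible because no value belongs to a single sample.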
